A study of Mus musculus with 4 samples.

Results

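Lysosomes are acidic organelles in which soluble hydrolases take apart glycosaminoglycans, glycolipids, glycoproteins and proteins, each enzyme cutting a particular bond or removing a particular group. Membrane proteins such as LAMP1 and LAMP2 line the organelle, and the transcription factors TFEB and TFE3 bind a short motif around CACGTG, the core of the CLEAR element, in the promoters of many lysosomal genes. In the kidney, proximal tubule cells take up filtered proteins by endocytosis and degrade them in lysosomes. The genes described here are 36 named lysosomal genes, taken from a list of symbols: 8 glycosaminoglycan-degrading enzymes, 8 lipid-degrading enzymes, 5 glycogen- and glycoprotein-degrading enzymes, 8 protein-degrading enzymes, 4 membrane proteins, the activator protein *Psap*, and the 2 transcription factors *Tfeb* and *Tfe3*. All 36 were among the 22063 genes listed, and all 36 passed the filter on low counts that left 11727 genes for testing.

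RNA-sequencing was compared between 2 libraries labelled Scrambled (replicates 2 and 3) and 2 labelled Itgb6-siRNA (replicates 1 and 3), the groups the study calls si-NC and si-*Itgb6*. All 4 came from TKPTS cells, a mouse proximal tubule cell line that the labels name TKPT, with the genotype given as WT for Scrambled and Itgb6 knockdown for Itgb6-siRNA. The cells were transfected with the control or the *Itgb6* siRNA, kept for 24 h in 1% O2 with 5% CO2, and returned to normal oxygen for 12 h. The comparison asks what an siRNA against *Itgb6*, the beta subunit of integrin αvβ6, changes in hypoxic tubule cells. The labels do not say whether replicates were separate cultures, so p-values measure only the spread between these libraries.

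The libraries held 15435074 to 17220281 estimated counts, of which the 36 genes took 0.656% to 0.671%. *Itgb6*, the targeted gene, had 285 and 284 counts in the Scrambled libraries and 279 and 260 in the Itgb6-siRNA libraries (log2 fold change -0.0051, 95% confidence interval -0.27 to 0.26), so the groups are named by their labels only. Of 14 proximal tubule markers, 7 passed the filter, and the transporter genes *Slc34a1*, *Slc5a2*, *Slc22a6* and *Slc22a8* were at 0 counts in all 4 libraries. *Lrp2* (2 to 17 counts) and *Hnf4a* (0 to 1) did not pass, while *Cubn* (30 to 45) and *Aqp1* (387 to 633) did. All 6 general renal epithelial markers passed, with a summed level of 2898 and 2929 CPM (counts scaled to library size) in Scrambled against 2724 and 2736 CPM in Itgb6-siRNA. The log2 fold changes of all genes fell with the GC content of their transcripts (Spearman's rho of -0.364, a description over genes and not over replicates). Values were therefore also computed after GC and length correction, in which both trends were taken out of each library.

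Motifs of the CLEAR kind were looked for in the RefSeq promoter windows (GRCm38.p6, 250 bases before to 50 after the start), on both strands. A window was found for 31 of the 36 genes, and *Galns*, *Hgsnat*, *Asah1*, *Ctsb* and *Ctsh* had none. CACGTG was present in 10 of the 31 genes (32.3%) and in 8.09% of the 27025 genes with a window. The longer TCACGTG, which contains it, was present in 9 of the 31 (29%) against 4.29% of all genes, and the palindrome TCACGTGA, which contains both, in 3 of the 31 (9.68%) against 1.12%. The windows below are shown because they belong to the genes with the motif that had the lowest and the highest log2 fold changes, and to the abundant *Ctsd* and *Lamp1*. Each is read 5′ to 3′ on the gene's strand, with CACGTG in capitals and its distance from the RefSeq start given after it.
*Naglu* (chr11:101070011-101070036, plus strand, 73 bases before the start): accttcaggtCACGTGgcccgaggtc
*Sgsh* (chr11:119355524-119355549, minus strand, 29 bases before the start): gcctgccgtgCACGTGaccgtgggga
*Gla* (chrX:134601217-134601242, minus strand, 227 bases before the start): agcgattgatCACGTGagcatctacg
*Gla* (chrX:134601184-134601209, minus strand, 194 bases before the start): agatctcggtCACGTGagcaactctc
*Ctsd* (chr7:142387910-142387935, minus strand, 98 bases before the start): gcccgcgtctCACGTGacccgttgag
*Lamp1* (chr8:13159090-13159115, plus strand, 61 bases before the start): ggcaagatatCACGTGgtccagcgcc
The glycosaminoglycan-degrading enzymes held the core in 2 of 6 windows, those of *Naglu* and *Sgsh*, while *Arsb* and *Idua* had a window without it. *Lamp1* carried 4 copies in all, and *Gla*, *Ctsa* and *Ctsd* carried 2 each. A match is only a string of letters and does not show that a factor binds there.

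The levels of the 36 genes, compared as the authors' FPKM because these are scaled by length, spanned a wide range. The aspartic protease *Ctsd* was highest with a mean of 693 FPKM, followed by the cysteine protease *Ctsl* (510 FPKM), the tetraspanin *Cd63* (359 FPKM), *Ctsz* (280 FPKM) and *Lamp1* (257 FPKM). The acid lipase *Lipa* was lowest with a mean of 1.41 FPKM, just below *Idua* (2.08 FPKM), *Sgsh* (2.17 FPKM) and *Tfeb* (2.42 FPKM). Protein-degrading enzymes made up 58.0% of the summed FPKM of the 36 genes and the 4 membrane proteins 24.2%. The 8 glycosaminoglycan-degrading enzymes made up 1.52%, with single means from 2.08 to 10.5 FPKM. The genes with the lower values described next were therefore among the least abundant of the group.

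Genes were called with the study's thresholds in edgeR's quasi-likelihood test: an unadjusted p under 0.05 with at least a 1.2-fold difference. By this rule 4 of the 36 lysosomal genes (11.1%) were called lower and 0 were called higher in the Itgb6-siRNA libraries, while 5.2% of all genes tested were called lower and 4.37% higher. The 4 genes, *Naglu*, *Idua*, *Sgsh* and *Arsb*, were all glycosaminoglycan-degrading enzymes, so 4 of the 8 members of that class (50%) were called. The genes and classes were chosen with earlier results of these data known. The share of 50% is therefore a description and not evidence for a change of the class. With Benjamini-Hochberg adjustment of the edgeR p-values over all genes tested, the adjusted p used throughout, 1 of the 36, *Naglu*, had an adjusted p under 0.05, where 2.52% of all genes were lower and 2.11% higher. No member was called higher, although *Gla* missed the p threshold narrowly (unadjusted p = 0.0520 from the edgeR fit). The 2 groups had no overlap of their libraries in 15 members with lower values (41.7%) and in 6 with higher values (16.7%), against 25.4% and 23.8% of all genes tested. The median log2 fold change of the 36 genes was -0.065 and that of all genes tested 0.00017, and after GC and length correction the median of the 36 was -0.015.

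**Figure D1:**
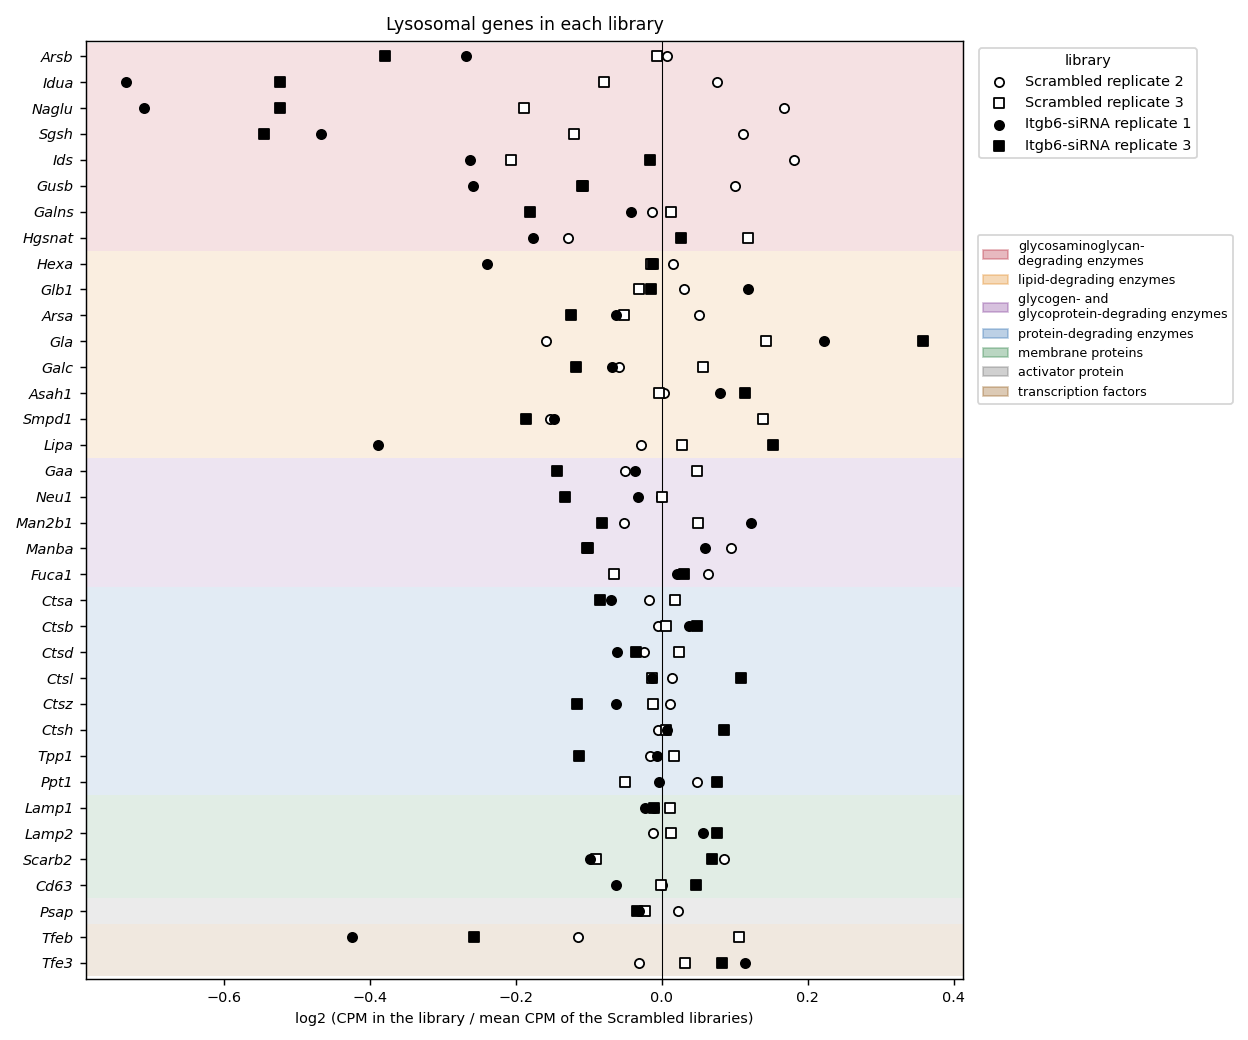
Level of each of the 36 lysosomal genes in each library, as log2 of its CPM over the mean CPM of the 2 Scrambled libraries, with open symbols for Scrambled, filled symbols for Itgb6-siRNA, and background colour for the class. For *Arsb*, *Idua*, *Naglu* and *Sgsh* both filled symbols lie well to the left of both open symbols, whereas for the protein-degrading enzymes and membrane proteins all symbols lie close to 0.

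Glycosaminoglycans are long sulfated sugar chains, and the 8 enzymes take them apart from one end. Of these enzymes 6 act on heparan sulfate, and *Arsb* and *Galns* act on dermatan, chondroitin or keratan sulfate. All 8 had values below 0 on the log2 scale, with a median of -0.25 (-0.24 after GC and length correction), and 6 of the 8 (75%) were lower without overlap between groups, against 25.4% of all genes tested. Their summed level was 165 and 155 CPM in the Scrambled libraries and 131 and 136 CPM in the Itgb6-siRNA libraries, a ratio of group means of 0.831. In that sum both Itgb6-siRNA libraries were below both Scrambled libraries.

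*Naglu* (ENSMUSG00000001751; chromosome 11 from 101070012 to 101077672, plus strand, GENCODE vM21 on GRCm38) encodes the enzyme that removes terminal N-acetylglucosamine from heparan sulfate. It had 406 and 336 counts in Scrambled replicates 2 and 3 and 210 and 254 counts in Itgb6-siRNA replicates 1 and 3. Normalized, this was 22.2 ± 3.85 CPM (SD, n = 2) against 14.5 ± 1.32 CPM (SD, n = 2), and the groups did not overlap. *Naglu* fell by 0.61 on the log2 scale (SE 0.14, edgeR adjusted p = 0.00566), a 1.53-fold difference. The Scrambled libraries themselves stood apart, and without Scrambled replicate 2 the log2 fold change was -0.42 with an adjusted p of 0.407 from the same edgeR test. After GC and length correction it was -0.48 with an edgeR adjusted p of 0.0682, and DESeq2 without its filter on mean counts gave an adjusted p of 0.0514.

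*Idua* (ENSMUSG00000033540; chromosome 5 from 108660331 to 108684557, plus strand) encodes alpha-L-iduronidase, which removes terminal iduronic acid from heparan and dermatan sulfate. It had 144 and 137 counts in the Scrambled libraries and 78 and 96 counts in the Itgb6-siRNA libraries. This was the largest difference of the 36 genes, with both Itgb6-siRNA libraries below both Scrambled libraries. On the log2 scale it differed by -0.62 (SE 0.20, edgeR adjusted p = 0.0679), and the 95% confidence interval ran from -1.03 to -0.21. Exons of *Idua* overlap those of *Dgkq* and *Slc26a1* on the opposite strand, and reads without strand cannot tell them apart. *Dgkq* had 66, 74, 64 and 28 counts and *Slc26a1* 20, 19, 21 and 14 counts in the same order of libraries.

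*Sgsh* (ENSMUSG00000005043; chromosome 11 from 119343425 to 119355536, minus strand) encodes the sulfamidase that removes the sulfate from the amino group of glucosamine in heparan sulfate. It had 195 and 176 counts in the Scrambled libraries and 124 and 125 counts in the Itgb6-siRNA libraries, without overlap. The difference was -0.50 on the log2 scale (SE 0.17, edgeR adjusted p = 0.0914). Its estimated counts were not whole in any of the 4 libraries, and its exons overlap those of *Card14* on the opposite strand, which had 24, 56, 48 and 33 counts. *Sgsh* was no longer called without Scrambled replicate 2, where its log2 fold change was -0.39.

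*Arsb* (ENSMUSG00000042082; chromosome 13 from 93771630 to 93943016, plus strand) encodes arylsulfatase B, which removes sulfate from N-acetylgalactosamine of dermatan and chondroitin sulfate. It had 514 and 539 counts in the Scrambled libraries and 403 and 397 counts in the Itgb6-siRNA libraries. Replicates were close, at 31.4 ± 0.219 CPM against 25.1 ± 1.36 CPM (SD, n = 2 each), and the groups did not overlap. The log2 fold change of -0.32 (SE 0.11, edgeR adjusted p = 0.0761) became -0.28 after GC and length correction. Its exons overlap those of *Gm26527* and *Gm47210* on the opposite strand.

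The other 4 enzymes of the class were not called. *Galns*, the sulfatase of keratan and chondroitin sulfate and the most abundant of the 8, had 445 and 480 counts against 414 and 400 counts. Its CPM values did not overlap, but the difference was small (log2 fold change -0.11, 95% confidence interval -0.33 to 0.11). *Gusb*, the beta-glucuronidase, had a log2 fold change of -0.18, and its nearest libraries from the 2 groups differed by little, at 18.4 and 18.3 CPM. *Ids*, which removes sulfate from iduronic acid before *Idua* acts, was at -0.13, and *Hgsnat*, which acetylates glucosamine after *Sgsh* and before *Naglu* act, was at -0.071. In *Ids* and *Hgsnat* the groups overlapped, and leaving out 1 library turned the sign of each. The lower bounds of their 95% intervals were -0.44 and -0.31, so a difference as large as that of *Arsb* lay within the interval of *Ids*.

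**Figure D2:**
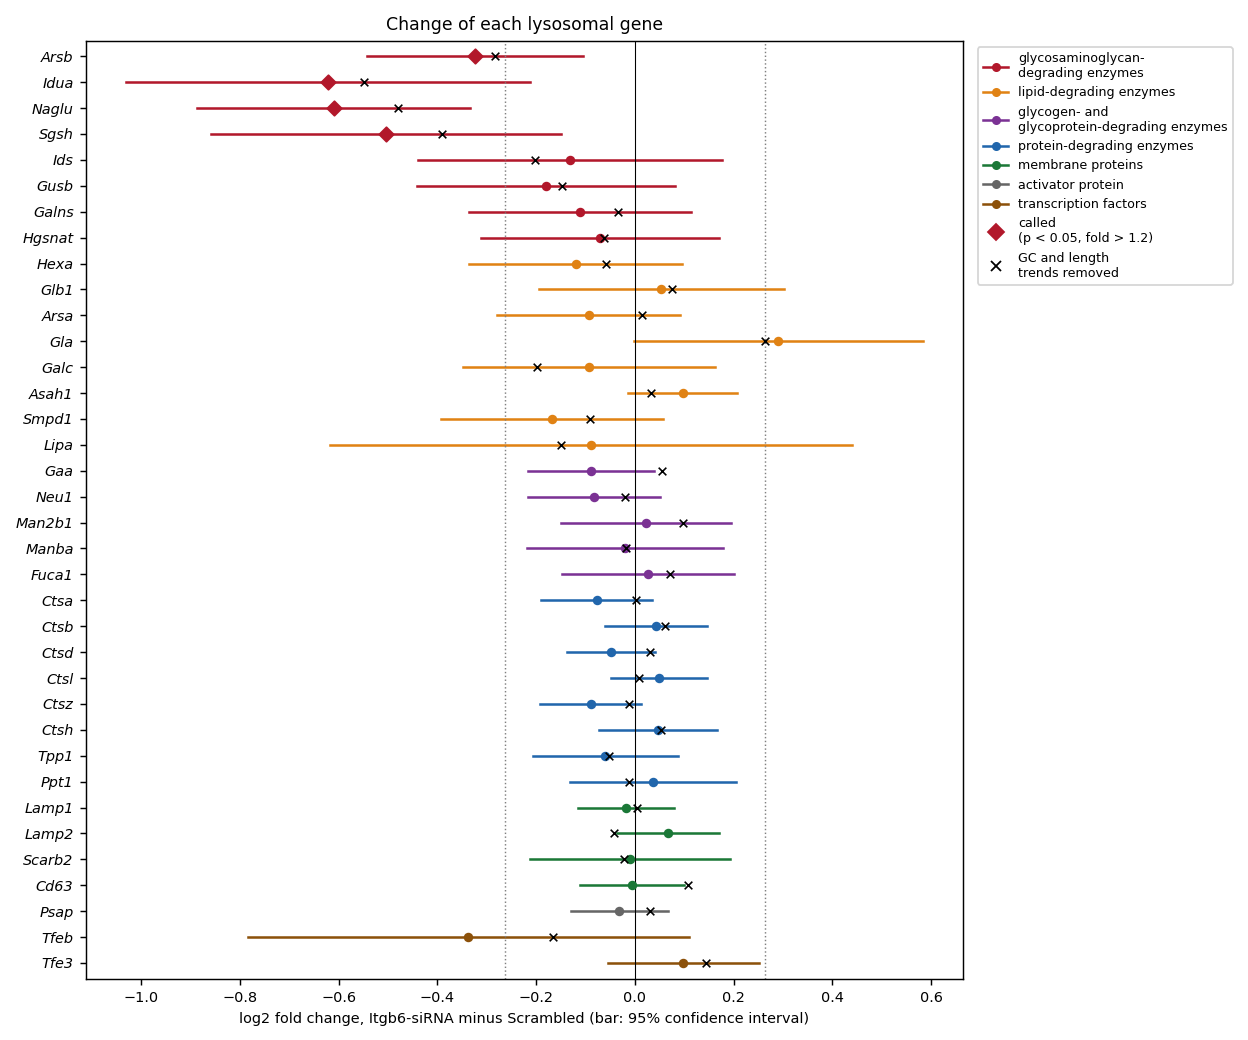
Log2 fold change of each gene (Itgb6-siRNA minus Scrambled) from edgeR, with bars for the 95% confidence interval, diamonds for the 4 called genes, crosses for the value after GC and length correction, and dotted lines at a fold change of 1.2 either way. The intervals of *Arsb*, *Idua*, *Naglu* and *Sgsh* lie wholly below 0, and those of the other 32 genes include 0.

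The lipid-degrading enzymes did not show a common direction. Of the 8, 5 had values below 0 and 3 above, and the median log2 fold change was -0.091 (-0.022 after GC and length correction). Of these enzymes 0 were called, near the shares of all genes tested (5.2% lower and 4.37% higher). *Gla*, the alpha-galactosidase that acts on globotriaosylceramide, had 187 and 244 counts in the Scrambled libraries and 231 and 270 counts in the Itgb6-siRNA libraries. In CPM both Itgb6-siRNA libraries were above both Scrambled libraries, at 14.9 and 16.4 against 11.5 and 14.1. The difference was 0.29 on the log2 scale (SE 0.14, edgeR adjusted p = 0.276), and it was called higher without the filter on low counts, without Scrambled replicate 3 and without Itgb6-siRNA replicate 1.

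*Asah1*, the acid ceramidase and the most abundant lipid enzyme, had 3741 and 3942 counts against 3742 and 4078 counts. Normalized to 229 and 228 CPM against 242 and 248 CPM, the groups did not overlap, and the log2 fold change was 0.097 (95% confidence interval -0.013 to 0.21). *Smpd1*, the acid sphingomyelinase, was at -0.17, and it was called lower only when Scrambled replicate 2 was left out, among the settings run. *Hexa* (-0.12), *Arsa* (-0.093), *Galc* (-0.093), *Lipa* (-0.089) and *Glb1* (0.053), which act on gangliosides, sulfatides, galactosylceramide, cholesteryl esters and beta-galactosides, were not called. *Lipa* had only 51 to 79 counts per library, and its interval, from -0.62 to 0.44, was the widest of the class.

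The glycogen- and glycoprotein-degrading enzymes were close to 0. Of the 5, 3 had values below 0 and 2 above, and 0 were called, near the shares of all genes tested (5.2% lower and 4.37% higher). The median was -0.020 (0.055 after GC and length correction, so the sign depended on that step). *Neu1*, the lysosomal sialidase and the most abundant, had 1977 and 2096 counts against 1835 and 1822 counts, without overlap in CPM, and a log2 fold change of -0.082. *Gaa*, the acid alpha-glucosidase that breaks down glycogen, had 2490 and 2823 counts against 2386 and 2356 counts and a log2 fold change of -0.089, which became 0.055 after correction. The mannosidase genes *Man2b1* (0.022) and *Manba* (-0.020) and the fucosidase gene *Fuca1* (0.026) had overlapping groups.

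The protein-degrading enzymes, with the largest counts of the module, gave the narrowest intervals. Of the 8, 4 had values below 0 and 4 above, and the median was -0.0055. Here too 0 were called, near the shares of all genes tested (5.2% lower and 4.37% higher). Their 95% intervals stayed between -0.21 and 0.21, within the fold change of 1.2 in either direction. *Ctsd* had 24042 and 26309 counts in the Scrambled libraries and 22243 and 24070 counts in the Itgb6-siRNA libraries. Its CPM values did not overlap, yet the log2 fold change was -0.048 (SE 0.044), and 0.030 after GC and length correction. *Ctsz*, the carboxypeptidase cathepsin Z, had the largest value of the class at -0.089, with 6845 and 7134 counts against 6173 and 6323 counts. It became -0.012 after correction.

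The cysteine proteases *Ctsl*, *Ctsb* and *Ctsh* were at 0.049, 0.043 and 0.047, *Ctsa*, which also protects *Neu1* and beta-galactosidase, at -0.077, the tripeptidyl peptidase *Tpp1* at -0.060, and the thioesterase *Ppt1* at 0.037. The summed level of the 8 protein-degrading enzymes, *Ppt1* included, was 3738 and 3771 CPM in the Scrambled libraries and 3665 and 3764 CPM in the Itgb6-siRNA libraries, so the groups overlapped in that sum. The estimated counts of *Ctsa*, *Ctsb*, *Ctsd* and *Ctsl* were not whole, and *Ctsd* and *Ctsl* share exon positions with *Gm49369* and *Gm49230* on the same strand.

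The lysosomal membrane proteins were likewise close to 0. *Cd63*, the most abundant, had 6224 and 6587 counts against 5656 and 6489 counts and a log2 fold change of -0.0065, with overlapping groups. *Lamp2*, which serves in chaperone-mediated autophagy, had 5572 and 6003 counts against 5547 and 5982 counts. After normalization its Itgb6-siRNA libraries were higher without overlap, at 0.066 on the log2 scale (95% confidence interval -0.037 to 0.17), and at -0.042 after GC and length correction. *Lamp1* was at -0.017 and *Scarb2*, the receptor that carries beta-glucocerebrosidase to lysosomes, at -0.010. *Psap*, the precursor of the saposins that present lipids to their hydrolases, had 8860 and 9096 counts against 8105 and 8607 counts and a log2 fold change of -0.032.

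**Figure D3:**
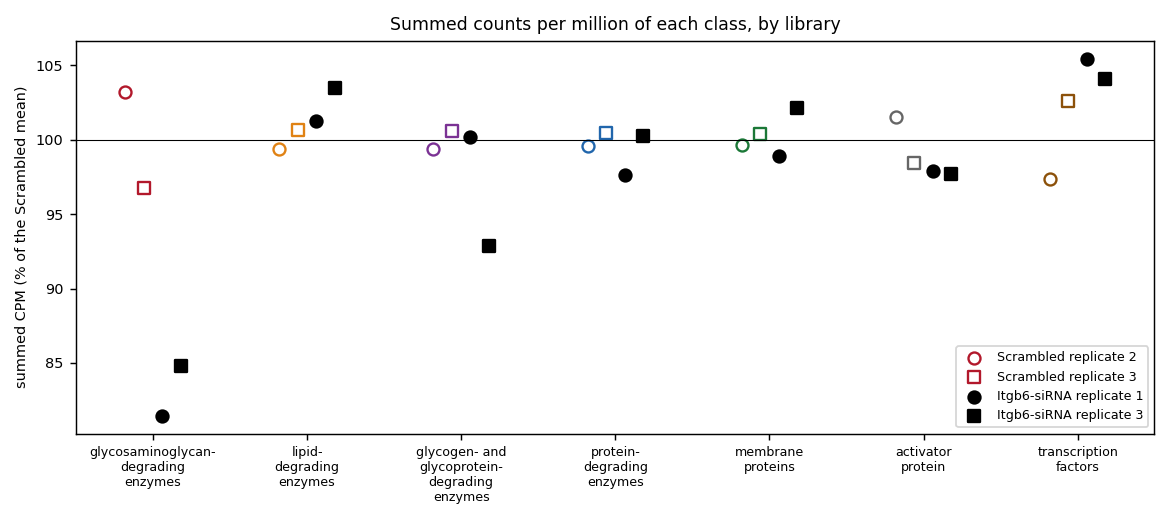
Summed CPM of each class in each library, in percent of the mean of the 2 Scrambled libraries, with open symbols for Scrambled and filled symbols for Itgb6-siRNA, on an axis that does not start at 0. The glycosaminoglycan-degrading enzymes sum to 131 and 136 CPM in Itgb6-siRNA against 165 and 155 CPM in Scrambled, and the protein-degrading enzymes overlap.

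Set side by side, the median log2 fold changes were -0.25 for the glycosaminoglycan-degrading, -0.091 for the lipid-degrading and -0.0055 for the protein-degrading enzymes. After GC and length correction these were -0.24, -0.022 and 0.0054. The ratios of the summed CPM, Itgb6-siRNA over Scrambled, were 0.831, 1.02 and 0.989. Members of a class are not replicates, so these are descriptions without a test of the difference between classes, and an exact permutation of 2 against 2 libraries cannot give a p below 0.333 for any single value. The precision also differed, since standard errors were 0.11 to 0.20 in the glycosaminoglycan class, 0.054 to 0.26 in the lipid class and 0.044 to 0.082 in the protein class. Changes as small as those of the protein-degrading enzymes could not have been seen in the glycosaminoglycan enzymes at their 78 to 539 counts per library.

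**Figure D4:**
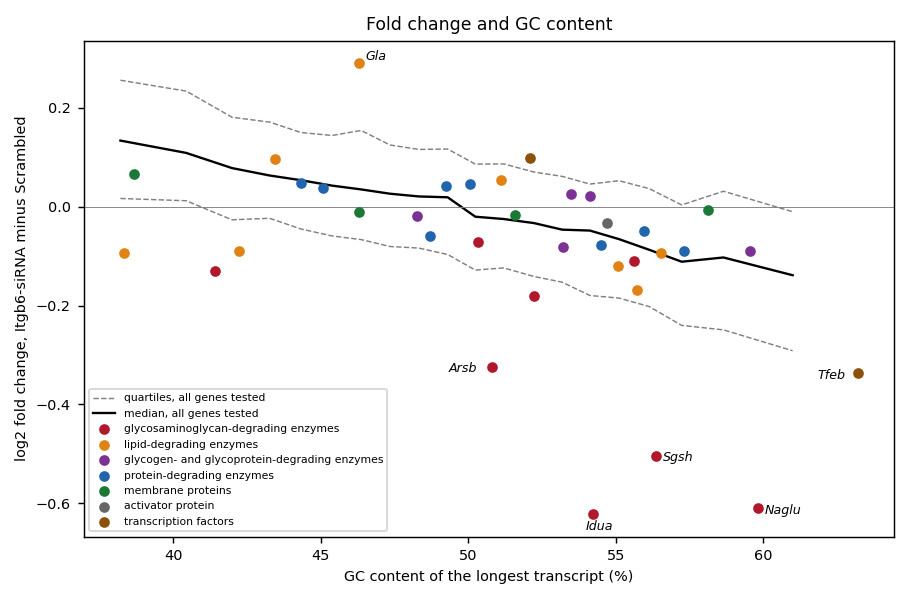
Log2 fold change (Itgb6-siRNA minus Scrambled) against GC content of the longest transcript for the 36 genes, coloured by class. Lines show the median (solid) and quartiles (dashed) of all genes tested, in 20 bins of GC content with about equal numbers of genes. *Arsb*, *Idua*, *Naglu* and *Sgsh* lie below the lower quartile of genes of like GC content, and most other members lie near the median line.

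Many members were rich in GC. In 12 of the 36 the GC content was at least 54.6%, and above that content the median log2 fold change was -0.10 over all genes and -0.10 over the 12 members. After GC and length correction 421 of the 11727 genes tested were called lower and 421 higher. The 4 called genes were again among those called lower, at -0.55 for *Idua*, -0.48 for *Naglu*, -0.39 for *Sgsh* and -0.28 for *Arsb*. In contrast, the values of 9 members turned sign with this step, all of them within 0.11 of 0 before and after it.

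The transcription factors were not called. *Tfeb* had 94 and 116 counts in the Scrambled libraries and 72 and 86 counts in the Itgb6-siRNA libraries, without overlap in CPM. The difference of -0.34 on the log2 scale (SE 0.22, edgeR adjusted p = 0.438) became -0.17 after GC and length correction. *Tfe3*, more abundant with a mean of 25.2 FPKM, had 1119 and 1238 counts against 1175 and 1223 counts and a log2 fold change of 0.098 (95% confidence interval -0.055 to 0.25). The interval of *Tfeb* ran from -0.78 to 0.11, so at these counts neither a lower level nor an equal one was excluded.

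Other genes of the pathway were taken from lists. Among other lysosomal hydrolases and their helpers, 29 of 35 symbols were tested, 1 was called lower and 0 higher, with a median of -0.030. *Man2b2*, a mannosidase, had 684 and 730 counts against 562 and 500 counts and fell by 0.34 on the log2 scale (edgeR adjusted p = 0.0411). After GC and length correction its edgeR adjusted p was 0.288.

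Some genes of that list that serve glycosaminoglycan breakdown, named after their values were seen, were not called. The heparanase gene *Hpse* was at -0.022, and the hyaluronidase genes *Hyal1* and *Hyal2* at 0.15 and -0.081. *Sumf1*, which makes the active-site residue of all sulfatases, was at 0.024. Lower values were thus found for some enzymes of glycosaminoglycan breakdown and not for all of them.

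Among other lysosomal membrane proteins and transporters, 27 were tested, 1 was called lower and 1 higher, and the median was -0.075. *Sidt2*, a lysosomal membrane protein implicated in nucleic acid uptake, had 918 and 984 counts against 736 and 684 counts and fell by 0.35 on the log2 scale (edgeR adjusted p = 0.0152, or 0.161 after GC and length correction). The gene called higher was the cystine transporter *Ctns*, named after its values were seen, at 0.29 with an adjusted p of 0.239 from edgeR. Of the proton pump subunits, 19 were tested and 0 were called, with a median of 0.0067, and the largest value was 0.21 for *Atp6v0a2*. The sorting genes, of which 14 were tested, also had 0 calls and a median of 0.050, with the largest value, -0.20, for the adaptor *Gga1*.

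Of 18 tested MiT factors and regulators 1 was called lower and 0 higher, with a median of -0.033. The largest value there was -0.44 for *Mitf*, with 29 and 22 counts against 11 and 25 counts and overlapping groups, and the called gene was *Rptor*, named after its values were seen, at -0.27 (edgeR adjusted p = 0.111). After GC and length correction *Rptor* was at -0.17 and was not called. Of 17 autophagy genes 1 was called lower and 0 higher, with a median of 0.025. It was the kinase gene *Ulk1*, with 214 and 223 counts against 156 and 165 counts and a difference of -0.37 on the log2 scale (edgeR adjusted p = 0.176), and it was not called after GC and length correction, at -0.25 with an unadjusted edgeR p of 0.114. The proton pump and sorting lists had 0 called lower and the other 4 lists 1 each, shares near or below the 5.2% of all genes tested. Only *Ctns* of these 6 lists was called higher, where 4.37% of all genes tested were called higher. After GC and length correction 0 genes of these 6 lists were called lower and 1, *Ctns*, was called higher. Of all 11727 genes tested, 421 were then called lower and 421 higher.

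Lysosomal genes are also abundant in macrophages, and fewer cells of a type cannot be told apart from less RNA per cell in bulk samples. Of 11 macrophage markers 2 passed the filter, and their summed level was 27.7 to 29.1 CPM in Scrambled and 23.3 to 29.1 CPM in Itgb6-siRNA. Most of it was *Csf1r*, with 365 to 468 counts, while *Fcer1g* was at 0 in all 4 libraries and *Adgre1* and *C1qa* had at most 1 count. *Lyz2* had 11 counts in Itgb6-siRNA replicate 1 and 0 in the other libraries. The summed level of 7 fibroblast markers was 3.19 to 3.53 CPM in Scrambled and 3.28 to 5.81 CPM in Itgb6-siRNA, with traces of *Col1a1* (22 counts) and *Col3a1* (14 counts) in Itgb6-siRNA replicate 1. Without that replicate *Naglu*, *Idua*, *Sgsh* and *Arsb* were called lower, in a fit that leaves 1 Itgb6-siRNA library and takes the spread from the Scrambled libraries alone. The summed level of the 6 renal epithelial markers was lower in both Itgb6-siRNA libraries, though 0 of the 6 were called and *Pax8* was at 0.087. Of them *Krt8* alone had an adjusted p under 0.05 and fell by 0.20 on the log2 scale (edgeR adjusted p = 0.00881, or 0.199 after GC and length correction). The proximal tubule water channel gene *Aqp1* rose by 0.59 (edgeR adjusted p = 0.000617). The part of all these markers in the lower values of the glycosaminoglycan-degrading enzymes was not tested.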

How the data were processed

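Polyadenylated RNA was sequenced by the authors in pairs and without strand information in 4 libraries of TKPTS cells, 2 per group. The study states that the samples for analysis were optimized after clustering, without saying how. The authors deposited estimated counts per gene, not normalized, and FPKM values; the aligner, counter, build and annotation are not given in the sources used here. Estimated counts were rounded and filtered with filterByExpr of edgeR 4.0.16 (minimum count 10, minimum total 15), normalized by TMM and compared by the quasi-likelihood test (R 4.3.3). Adjusted p-values are Benjamini-Hochberg values over the 11727 genes tested. Each SE is the log2 fold change divided by the root of its F value. CPM used TMM library sizes. FPKM served only to compare levels between genes. The GC and length correction entered lowess curves (span 0.3) as offsets. DESeq2 1.42.0 was an alternative. Positions are from GENCODE vM21, which may not be the authors' annotation, and promoters from RefSeq. The quasi-likelihood fit alone was run on simulated counts with known fold changes and no GC trend. That run checked the fold change estimates, not the p-values or the other tests. Replicates differed by more than sampling noise (chi-square per member gene 2.85 in Scrambled and 3.62 in Itgb6-siRNA).

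The 36 genes, their classes and the related lists were chosen with earlier results of these data known. All members were accounted for. Values in every library were given for each called member, for the most abundant and the most changed member of each class, for *Itgb6*, and, in each related list, for up to 4 genes with an adjusted p under 0.05 or otherwise the most changed one. Results for some genes of the related lists are not reported here.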

Additional observations from a re-analysis of the deposited data

How the results depend on the processing

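No paired analysis was possible because the groups share only replicate number 3. *Arsb*, *Idua*, *Naglu* and *Sgsh* were called lower under every test, normalization, filter and correction run, and when libraries were left out except that *Sgsh* was lost without Scrambled replicate 2, where *Smpd1* was called instead. A group left with 1 library was assumed to vary like the other group. Over a fold change of 1.5 the number called lower was 2, over 2-fold it was 0, and with an adjusted p under 0.05 it was 1. The number called higher was 1 (*Gla*) without the filter, and 0 to 1 when single libraries were left out. Members with an adjusted p under 0.05 numbered 2 (*Naglu* and *Idua*) with edgeR's exact test, with its likelihood ratio test and without the filter. They numbered 0 after GC and length correction and with DESeq2 without its filter on mean counts, an alternative chosen after seeing the data because DESeq2 gave no adjusted p for 11 of the 36 genes, and 0 to 1 when single libraries were left out. Over all genes, DESeq2 called 383 lower and 320 higher, and without Scrambled replicate 2 the numbers were 402 and 338. After GC and length correction, 105 genes were lower and 112 higher at an adjusted p under 0.05.

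The median of the 36 genes was -0.063 with DESeq2 (with or without its filter) and with RLE factors, -0.080 with library size only and -0.015 after GC and length correction. That correction gave medians of -0.022 (lipid), 0.055 (glycogen and glycoprotein) and 0.0054 (protein), and library size alone gave -0.020 for the protein class. Leaving out 1 library moved the medians to between -0.057 and -0.035 (all 36), -0.32 and -0.25 (glycosaminoglycan), -0.074 and -0.014 (lipid), -0.10 and 0.025 (glycogen and glycoprotein), -0.018 and 0.0058 (protein) and -0.040 and 0.058 (membrane). *Itgb6* ranged from -0.10 to 0.091. The correction turned the sign of *Arsa* (0.014), *Gaa* (0.055), *Ctsa* (0.0019), *Ctsd* (0.030), *Ppt1* (-0.012), *Lamp1* (0.0046), *Lamp2* (-0.042), *Cd63* (0.11) and *Psap* (0.031). Leaving out 1 library turned the sign within these ranges: *Ids* -0.31 to 0.072, *Hgsnat* -0.19 to 0.061, *Glb1* -0.014 to 0.12, *Lipa* -0.39 to 0.15, *Man2b1* -0.083 to 0.12, *Manba* -0.11 to 0.080, *Fuca1* -0.034 to 0.090, *Ctsl* -0.011 to 0.11, *Ppt1* -0.0084 to 0.086, *Scarb2* -0.094 to 0.078 and *Cd63* -0.060 to 0.046. The cause was not tested. With 2 libraries per group and at most 539 counts for each glycosaminoglycan-degrading enzyme, small differences could not be seen.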
